A study of Bos indicus and Bos taurus with 17 samples.

Results

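Prostaglandins and leukotrienes are lipid mediators made from arachidonic acid, and the 10 genes described here follow that route from the release of arachidonate to the finished mediators. The genes were taken by name from the expression table of the study, and all 10 were found among 21631 distinct gene names. They are PLA2G4A, PTGS1, PTGS2, PTGES, PTGES3, ALOX5, ALOX5AP, LTA4H, ALOX15 and ANXA1. PTGES and ALOX15 had 2 entries each, of which the one with the higher mean was used.

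Cytosolic phospholipase A2 cuts arachidonate out of membrane phospholipids, and annexin A1 is known as an inhibitor of that step. Cyclooxygenases then turn arachidonate into prostaglandin H2, from which prostaglandin E synthases make prostaglandin E2, while 5-lipoxygenase, helped by its activating protein, makes leukotriene A4 and leukotriene A4 hydrolase makes the neutrophil attractant leukotriene B4. 15-lipoxygenase sends arachidonate and linoleate to hydroxy fatty acids and lipoxin precursors. In the udder these mediators are known mainly from mastitis, in which milk leukocytes and the epithelium both make them.

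The study measured the transcriptome of milk epithelial cells (MECs), the secretory cells shed into milk, by RNA-seq. The groups were Kashmiri cattle, labelled Bos indicus, and Jersey cattle, labelled Bos taurus, each on day 15 (D15), D90 and D250 of lactation. The cells had been captured from milk with beads carrying an antibody to cytokeratin 18. The labels give 17 samples, 3 per breed and day except for 2 in Jersey on D90, all from cows in their 2nd or 3rd lactation. The table holds 1 FPKM value (a fragment count scaled to transcript length and library size) for each of the 6 groups, so no difference below has a replicate check or a test of its own, and the table does not give the reads behind a value.

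D15 was sampled in March, D90 in July and D250 in December in both breeds, so day of lactation and month cannot be told apart. Breed and species cannot be told apart either, and both were aligned to one bovine genome, whose part in the breed differences was not tested. The mix of 2nd and 3rd lactations differed between groups, and the labels do not tie a cow to the 3 days. Jersey on each day was compared with Kashmiri on the same day, and the 3 pairs of days were compared within each breed. The 9 comparisons share their 6 groups and are not independent of each other. How many of all genes had Jersey and Kashmiri values without overlap was not counted. Where a member is said below to have such values, that share is missing beside it. Fold differences below are plain ratios of FPKM. A log2 ratio is taken after adding 1 FPKM to both values, and a gene is said to pass the limit where either group reached 1 FPKM and the log2 ratio was 2 or more in size.

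The captured cells carried epithelial and leukocyte transcripts side by side. Summed FPKM of 13 epithelial markers, led by KRT19 and ELF5, was 5875, 719.9 and 2620 in Kashmiri on D15, D90 and D250, and 2711, 100.4 and 1398 in Jersey. KRT18, the gene of the capture antigen, stood at 51.3, 9.13 and 11.5 FPKM in Kashmiri and at 33.7, 1.59 and 4.51 in Jersey. Both series were lowest on D90 in each breed.

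Neutrophil markers separated the breeds. Summed FPKM of 8 of them (CSF3R, S100A8, S100A9, S100A12, MMP9, IL1R2, TREM1 and NCF1) was 196, 518 and 658 in Kashmiri and 5354, 6877 and 14876 in Jersey. All 8 were higher past the limit in Jersey on each day, where 6.45%, 6.58% and 10.9% of all genes were. Summed FPKM of 12 macrophage markers was 118, 528 and 537 in Kashmiri and 1098, 2392 and 2777 in Jersey. That sum is led by CD68, CD14 and ADGRE1. On D250 only 2 of the 11 markers with at least 1 FPKM were past the limit in Jersey, against 10.9% of all genes. Their median log2 ratio on that day was 0.10. The complement genes C1QA, C1QB and C1QC were higher in Jersey past the limit on D15 but stood lower than in Kashmiri on D250, C1QC at 6.80 against 14.8 FPKM. The sum of 12 T and NK cell markers went the other way, at 479, 1889 and 465 in Kashmiri and 344, 251 and 187 in Jersey. On D15 0 of the 12 passed the limit, with a median log2 ratio of -0.22, and CD4, NKG7 and IL7R were higher in Jersey. On D90 8 of 12 were lower past the limit in Jersey, against 5.17% of all genes. On D250 it was 2 of 11, against 1.37%, while IL7R was higher in Jersey at 74.5 against 41.6 FPKM. PTPRC, the common leukocyte antigen CD45, was present in every group, at 68.7, 166 and 87.9 FPKM in Kashmiri and 60.0, 120 and 320 in Jersey.

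Markers of other blood cells were lower. The sums of 7 B cell markers lay between 8.60 and 82.0 FPKM and those of 4 platelet markers between 4.86 and 27.0. Sums of 7 eosinophil and mast cell markers lay between 3.60 and 34.4 FPKM. Of these KIT, also a marker of progenitor cells, stood at 8.77, 33.0 and 12.7 in Kashmiri and at 0.459, 0.534 and 0.504 in Jersey, lower past the limit on each day, and CCR3 reached 20.8 in Jersey on D250, while IL5RA, MS4A2, HDC and GATA2 stayed under 0.1 in every group. The 4 red cell markers summed to at most 0.976. In bulk RNA, fewer cells of a type and less RNA per cell cannot be told apart, and the part of these leukocytes in the values below was not tested.

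PLA2G4A encodes cytosolic phospholipase A2 alpha, the enzyme that frees arachidonate. It stood at 0.196, 0.544 and 0.863 FPKM in Kashmiri on D15, D90 and D250 and at 0.882, 2.38 and 2.89 in Jersey. In both breeds the later the day, the higher the value, although between D90 and D250 in Jersey this order turned when FPKM was rescaled to a library sum that left out the milk protein genes (a log2 ratio of -0.09). The lowest Jersey value, 0.882 on D15, and the highest Kashmiri value, 0.863 on D250, were nearly equal, and Kashmiri D250 was the higher of them with that rescaling (1.31 against 0.877) and with scaling to the upper quartile (1.03 against 0.805). Jersey exceeded Kashmiri 4.49-fold on D15, 4.36-fold on D90 and 3.35-fold on D250. None of these passed the limit, with log2 ratios of 0.65, 1.13 and 1.06, and on D15 neither breed reached 1 FPKM.

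ANXA1, the annexin that binds phospholipid in the presence of calcium and is induced by glucocorticoids, had the highest mean FPKM of the members, although in Kashmiri on D15 it lay under ALOX15 and PTGES3. It stood at 57.1, 215 and 231 FPKM in Kashmiri and at 638, 658 and 795 in Jersey. Its mean exceeded that of 98.1% of the 12342 genes with at least 1 FPKM in some group. All Jersey values lay above all Kashmiri values, also under both rescalings. Jersey was 11.2-fold higher on D15, 3.06-fold on D90 and 3.44-fold on D250, and only the D15 difference, a log2 ratio of 3.46, passed the limit. The Kashmiri value on D90 was 3.77 times that on D15, while the Jersey values of those days differed 1.03-fold.

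**Figure D1:**
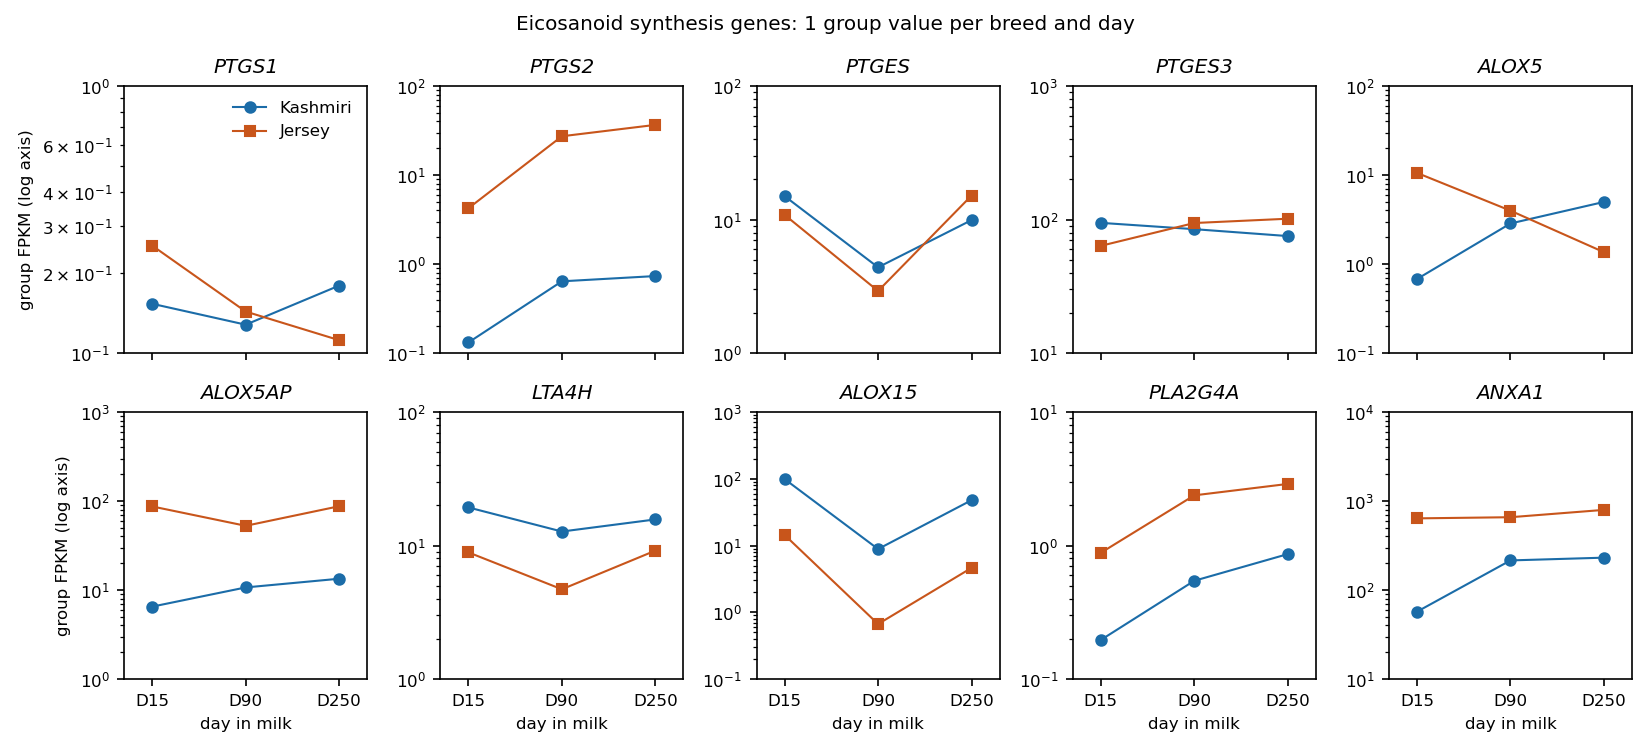
FPKM of the 10 genes on a log axis against day in milk, 1 point per breed and day (circles Kashmiri, squares Jersey), with no error bars since the table holds 1 value per group. The Jersey points of PTGS2, ALOX5AP and ANXA1 lie above all Kashmiri points, those of PLA2G4A do so by only 0.882 against 0.863 FPKM and not under either rescaling, and the lines of ALOX5 cross between D90 and D250, from 10.6 against 0.679 FPKM on D15 to 1.36 against 4.99 on D250. The share of all genes with such a separation was not counted.

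The 2 cyclooxygenases were far apart. PTGS1, the constitutive enzyme of platelets and many tissues, was under 1 FPKM in every group, at 0.153, 0.128 and 0.179 FPKM in Kashmiri and 0.253, 0.143 and 0.112 in Jersey. It therefore entered no count of genes past the limit. Its highest value was 2.26 times its lowest.

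PTGS2, the inducible cyclooxygenase that is switched on by cytokines and bacterial products, had the widest range of the 10 genes, 278-fold. It was under 1 FPKM throughout Kashmiri lactation, at 0.132, 0.640 and 0.734 FPKM, and stood at 4.23, 27.3 and 36.6 in Jersey. The lowest Jersey value lay above the highest Kashmiri value. Jersey exceeded Kashmiri 32.1-fold on D15, 42.6-fold on D90 and 49.9-fold on D250, with log2 ratios of 2.21, 4.11 and 4.44 that all passed the limit. Within Jersey, D90 was 6.44-fold and D250 8.64-fold above D15, which also passed. The Kashmiri values differed 4.86-fold and 5.57-fold over the same days but stayed below 1 FPKM and were not counted.

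PTGES, the inducible microsomal prostaglandin E synthase, followed a different course. It stood at 15.0, 4.39 and 9.91 FPKM in Kashmiri and at 10.9, 2.92 and 15.1 in Jersey. D90 was the lowest day in both breeds, 3.41-fold under D15 in Kashmiri and 3.72-fold in Jersey, with log2 ratios of -1.57 and -1.60. The second PTGES entry held 1.51 FPKM in Jersey on D90, and with both entries added the Jersey difference was 2.46-fold. From D90 to D250 the Jersey value was 5.18-fold higher, a log2 ratio of 2.04 that passed the limit by little and did not pass under either rescaling or with both entries added, and the Kashmiri value 2.26-fold higher. Between breeds the gene differed by at most 1.53-fold, with Kashmiri higher on D15 and Jersey higher on D250, where a log2 ratio of 0.56 became -0.14 without the milk protein genes in the scaling. On D90 the log2 ratio of Jersey over Kashmiri was -0.46, but it was 0.01 with both entries added.

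PTGES3, a co-chaperone of HSP90 that also has prostaglandin E synthase activity, varied least among the members above 1 FPKM. Its values were 94.5, 84.7 and 75.2 FPKM in Kashmiri and 63.6, 94.2 and 101 in Jersey. The highest was 1.60 times the lowest, and no comparison came near the limit.

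Ratios taken within a group do not depend on how the groups were scaled. PTGS2 to PTGS1 was 0.860, 5.01 and 4.10 in Kashmiri and 16.8, 190.5 and 327 in Jersey, though the PTGS1 values beneath are low. PTGS2 to PTGES was 0.00879, 0.146 and 0.0740 in Kashmiri and 0.390, 9.34 and 2.42 in Jersey. Thus the FPKM of cyclooxygenase 2 lay under that of the downstream synthase in all groups but Jersey on D90 and D250. PTGES3 exceeded PTGES in each group, from 5.86-fold to 32.3-fold, with the highest ratio of each breed on D90. With both PTGES entries added, the Jersey D90 ratios were 21.3 for PTGES3 to PTGES and 6.16 for PTGS2 to PTGES.

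ALOX5 encodes 5-lipoxygenase, the first enzyme of leukotriene synthesis, found mainly in myeloid cells. It stood at 0.679, 2.86 and 4.99 FPKM in Kashmiri and at 10.6, 3.98 and 1.36 in Jersey. The order of the days was opposite in the 2 breeds, with the highest value on D250 in Kashmiri and on D15 in Jersey. Jersey was 15.6-fold above Kashmiri on D15, a log2 ratio of 2.79 that passed the limit, 1.39-fold above on D90, and 3.67-fold below on D250. In Jersey D250 was 7.78-fold under D15 and passed the limit. In Kashmiri D250 was 7.35-fold above D15, with a log2 ratio of 1.83.

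ALOX5AP encodes the activating protein that presents arachidonate to 5-lipoxygenase. Its values were 6.51, 10.7 and 13.4 FPKM in Kashmiri and 86.9, 52.6 and 87.4 in Jersey. The groups of the breeds did not overlap under any scaling, though Jersey D15 came above Jersey D250 under both rescalings. Jersey was 13.3-fold, 4.92-fold and 6.52-fold above Kashmiri on D15, D90 and D250, with log2 ratios of 3.55, 2.20 and 2.62. All 3 passed the limit, but on D250 the log2 ratio was 1.89 with the milk protein genes left out of the scaling. The enzyme and its helper did not move together in Jersey, where ALOX5AP to ALOX5 was 8.22, 13.2 and 64.2 over the 3 days, against 9.60, 3.74 and 2.69 in Kashmiri.

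LTA4H, the hydrolase that forms leukotriene B4 and is present in most cell types, was higher in Kashmiri. It stood at 19.3, 12.7 and 15.7 FPKM in Kashmiri and at 8.89, 4.70 and 9.16 in Jersey, so that the lowest Kashmiri value lay above the highest Jersey value. The differences were 2.17-fold, 2.71-fold and 1.71-fold and did not pass the limit. D90 was the lowest day in both breeds.

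ALOX15, 15-lipoxygenase, was the member most in favour of Kashmiri. Its values were 99.0, 8.85 and 47.8 FPKM in Kashmiri and 14.4, 0.667 and 4.63 in Jersey. Kashmiri was higher on each day, 6.87-fold on D15, 13.3-fold on D90 and 10.3-fold on D250, although Kashmiri on D90 lay under Jersey on D15. The log2 ratios of Jersey over Kashmiri were -2.70, -2.56 and -3.11, and all passed the limit. With both ALOX15 entries added the difference on D90 was 8.26-fold, which also passed.

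Both breeds had their lowest ALOX15 value on D90. It was 11.2-fold below D15 in Kashmiri and 21.6-fold below in Jersey (13.3-fold with both entries added), and both differences passed the limit. D250 was 5.39-fold above D90 in Kashmiri, which passed with a log2 ratio of 2.31, and 6.94-fold above it in Jersey, which at 1.76 did not. The epithelial marker sum was also lowest on D90 in both breeds. ALOX15 to KRT18 was 1.93, 0.969 and 4.14 in Kashmiri and 0.428, 0.419 and 1.03 in Jersey, and the Kashmiri ratio was the higher on each day. Over the 13 epithelial markers taken one by one, the ratio of ALOX15 to the marker was higher in Kashmiri for 13 on D15, 11 on D90 and 13 on D250. ELF5 and MUC1 were the exceptions on D90, at 0.0429 in Kashmiri against 0.0530 in Jersey and at 0.206 against 0.269. All 13 ratios of a group share 1 ALOX15 value. On D15, D90 and D250 only 0.696%, 2.84% and 0.335% of all genes had a lower log2 ratio of Jersey over Kashmiri than ALOX15. Most genes in place of these markers would therefore give such counts, which say nothing particular to the epithelial markers. The part of the epithelial share in the ALOX15 values was not tested.

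**Figure D2:**
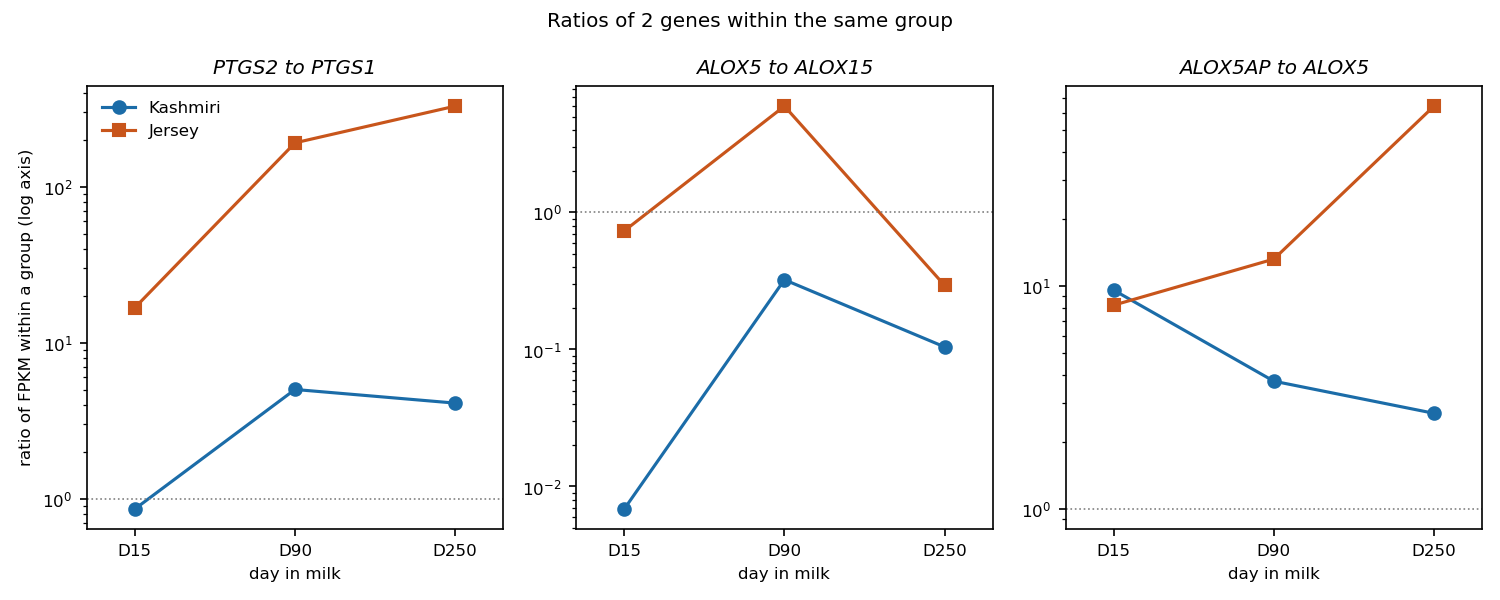
Ratios of FPKM between pairs of genes within each of the 6 groups on a log axis, 1 point per breed and day. PTGS2 to PTGS1 spans 0.860 to 327, and ALOX5 to ALOX15 lies above 1 only in Jersey on D90, at 5.97.

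The balance of the 2 lipoxygenases differed between breeds. ALOX5 to ALOX15 was 0.00686, 0.323 and 0.104 in Kashmiri and 0.734, 5.97 and 0.294 in Jersey. On each day the Jersey ratio was the higher, and it exceeded 1 only on D90, where it was 3.66 if both ALOX15 entries were added. LTA4H to ALOX5 was 28.4, 4.46 and 3.14 in Kashmiri and 0.840, 1.18 and 6.73 in Jersey.

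More members passed the limit between breeds than between days. On D15, 8 members had at least 1 FPKM, of which 4 (PTGS2, ALOX5, ALOX5AP and ANXA1) were higher past the limit in Jersey, where 6.45% of 11202 genes were, and 1 (ALOX15) was lower, where 2.12% were. On D90, 2 of 9 (PTGS2 and ALOX5AP) were higher against 6.58% of 11209 genes, and ALOX15 was lower against 5.17%. On D250 the same 2 genes of 9 were higher against 10.9% of 11642 genes, and ALOX15 was lower against 1.37%. The median log2 ratio of the members with at least 1 FPKM was 0.89, 0.37 and 0.56 on the 3 days, and that of all genes was -0.13, -0.03 and -0.10.

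Fewer members were past the limit between days. In Kashmiri from D15 to D90, 0 of 7 were higher, against 2.34% of all genes, and 1 (ALOX15) was lower, against 5.16%. From D90 to D250 ALOX15 was the 1 higher of 7, against 0.859%, and 0 were lower, against 1.12%. For D250 over D15 0 of 7 passed in either direction, against 1.85% higher and 2.2% lower. ANXA1 came closest there, with a log2 ratio that rounds to 2.00 but lay just under the limit, and it passed together with ALOX5 under the pseudocount of 0.1 and under both rescalings.

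In Jersey from D15 to D90, 1 of 9 (PTGS2) was higher, against 2.98% of all genes, and 1 (ALOX15) was lower, against 3.78%. From D90 to D250 PTGES was the 1 higher of 9, against 3.72%, and 0 were lower, against 0.466%. For D250 over D15 PTGS2 was higher, against 9.17%, and ALOX5 was lower, against 3.42%. With 7 to 9 members, a count of 1 is a share of over 10% by itself.

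**Figure D3:**
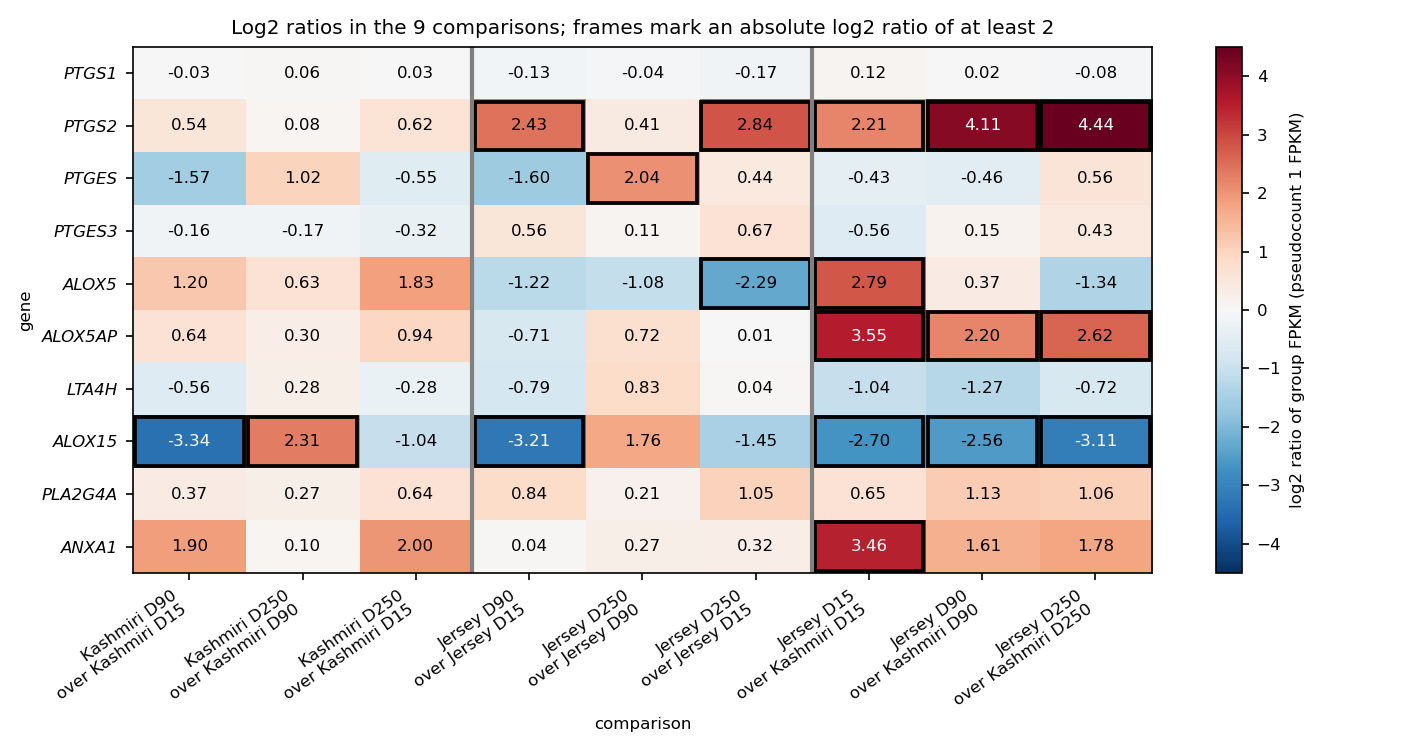
Log2 ratio of FPKM, with 1 FPKM added to both values, for the 10 genes (down) in the 9 comparisons (across), each cell printed with its value and framed where it passes the limit. PTGS2 and ALOX5AP are framed as higher in Jersey on all 3 days and ALOX15 as lower, while PTGS1 and PTGES3 have no framed cell.

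Some orders of the 6 groups recurred among the members. PTGS2, PLA2G4A and ANXA1 shared one order of the groups, from Jersey D250, D90 and D15 down to Kashmiri D250, D90 and D15, and ALOX5AP differed from it only in that Jersey D15 came above Jersey D90. With the milk protein genes left out of the scaling, Jersey D90 came above Jersey D250 for PLA2G4A and ANXA1, and Kashmiri D250 came above Jersey D15 for PLA2G4A, as it also did with the upper quartile. The summed neutrophil markers had this same order as deposited, and so did the summed macrophage markers, although the macrophage list had a median log2 ratio of -1.39 from D90 to D250 in Jersey, with C1QA, C1QB and C1QC lower past the limit. PTGES, LTA4H and ALOX15 had their lowest value of each breed on D90, as the epithelial marker sum did. ALOX5 followed neither order. Since neighbours in an order have no replicates, whether they differ beyond their spread is unknown.

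**Figure D4:**
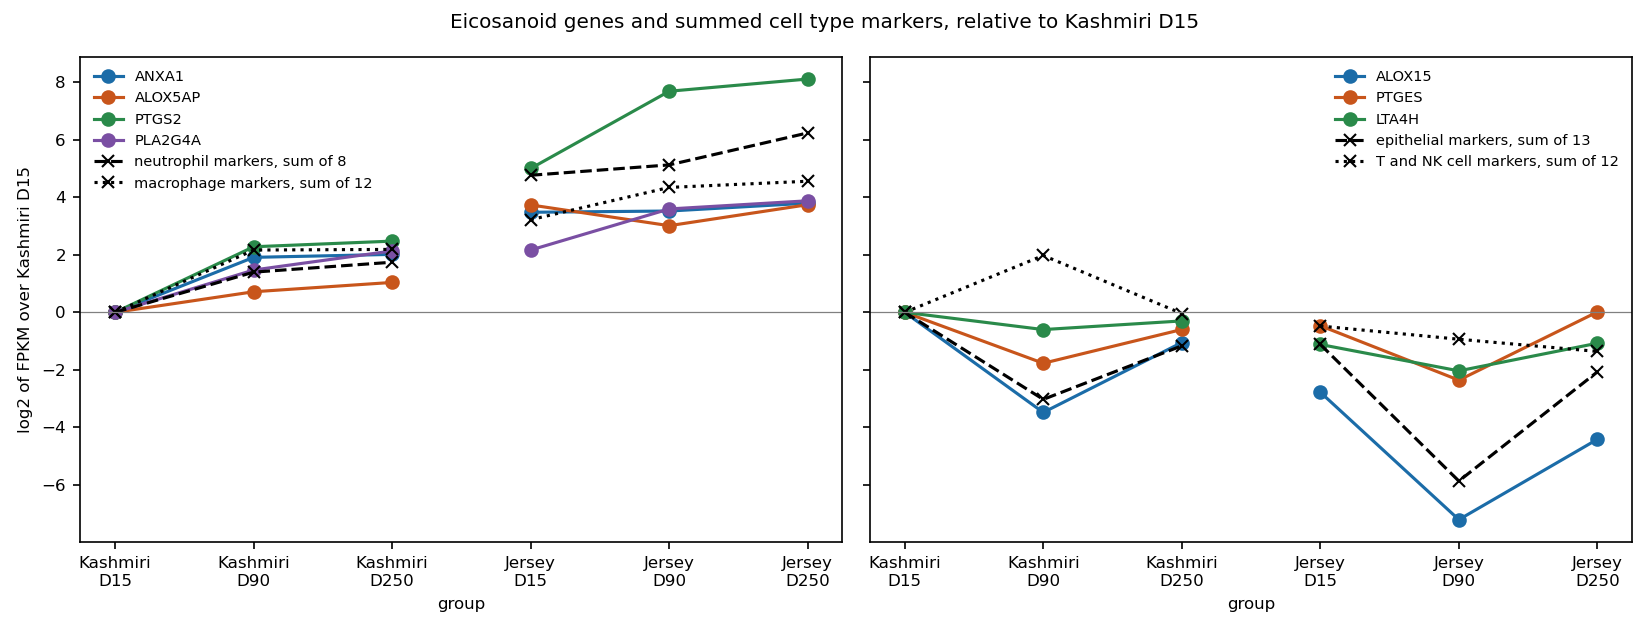
Log2 of FPKM over Kashmiri D15 in the 6 groups, with no FPKM added; the left panel shows 4 genes with the summed neutrophil and macrophage markers and the right panel 3 genes with the summed epithelial and T and NK cell markers. PTGS2 reaches the highest point of all, 278-fold above Kashmiri D15, and ALOX15 and the epithelial sum are lowest in Jersey on D90, at 0.667 and 100.4 FPKM.

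Relative to PTPRC the breed difference of the myeloid-associated genes was not uniform. ALOX5AP to PTPRC was 0.0948, 0.0644 and 0.152 in Kashmiri and 1.45, 0.440 and 0.273 in Jersey, and PTGS2 to PTPRC was 0.00192, 0.00385 and 0.00835 against 0.0706, 0.228 and 0.114. For both the Jersey ratio was the higher on each day. ANXA1 to PTPRC was 0.831, 1.30 and 2.63 in Kashmiri and 10.6, 5.50 and 2.48 in Jersey, so on D250 the order of the breeds turned. ALOX5 to PTPRC was likewise higher in Jersey on D15, at 0.176 against 0.00988, and lower on D250, at 0.00425 against 0.0567. The turn of ANXA1 rests on PTPRC, which stood at 87.9 FPKM in Kashmiri and 320 in Jersey on D250. Other leukocyte genes had a narrower breed gap than ANXA1 on D250. ITGB2 stood at 64.1 against 164 FPKM, CORO1A at 153 against 436 and LSP1 at 68.6 against 149.

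The genes with the most similar profiles were found by the root mean square difference of centred log2 values over the 6 groups. These were taken after adding 1 FPKM, and 0 is an identical profile on that scale. For ALOX5AP they were HK3, RAB32 and SCARF1, with differences of 0.14, 0.14 and 0.20 beside a median of 1.54 over all genes. For PTGS2 they were SLC13A3, FMNL3 and CASP4 (0.16, 0.23 and 0.23, median 2.08), and for ANXA1 CD163, BoLA DR-ALPHA and SLC7A7 (0.26, 0.26 and 0.27, median 1.41). PLA2G4A was closest to GPR141, PIAS3 and VPS29 (0.07, 0.08 and 0.08, median 0.80). The added 1 FPKM flattens its low values, so this likeness does not hold for plain ratios. PLA2G4A ranged 14.7-fold, from 0.196 to 2.89 FPKM, while VPS29 ran only from 14.2 in Kashmiri on D15 to 44.7 in Jersey on D250.

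ALOX15 was closest to SELENBP1, NDRG4 and ACACA, the last being acetyl-CoA carboxylase of fatty acid synthesis, but with larger differences of 0.41 each beside a median of 1.96. LTA4H had ASNS, HNRNPLL and SUOX at 0.08, 0.10 and 0.13 (median 0.73), and PTGES had METRN at 0.21 (median 0.91). ALOX5 had SAT2, TUBB2B and WWOX at 0.31, 0.31 and 0.33 (median 1.10). The flat profiles of PTGS1 and PTGES3 resemble many genes and single out none, and that of PTGS1 is flattened by the added 1 FPKM. Over 6 values such likeness is a description only. Among the members themselves ALOX5AP and ANXA1 were the closest pair with at least 1 FPKM in each group, at 0.51.

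In the RefSeq annotation of another bovine assembly, where 9 of the 10 genes were found by symbol, PTGS2 and PLA2G4A are neighbours on the chromosome. Their 6 groups stood in the same order as deposited, with Jersey values 32.1-fold to 49.9-fold above Kashmiri for PTGS2 and 3.35-fold to 4.49-fold for PLA2G4A. ANXA1, which is not their neighbour, had that order too, and PLA2G4A left it under both rescalings. A part of gene position in these values was not tested.

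The wider pathway was read from 9 lists of 112 further genes, of which 82 were in the table. On D15, 15 of the 51 with at least 1 FPKM were higher past the limit in Jersey and 0 were lower, where 6.45% and 2.12% of all genes were. On D90 there were 6 higher and 1 lower of 53, against 6.58% and 5.17%, and on D250 10 higher and 0 lower of 50, against 10.9% and 1.37%. Their median log2 ratio was 0.74, 0.51 and 0.08 on the 3 days. Between days in Kashmiri, D90 over D15 had 3 higher and 3 lower of 53, against 2.34% and 5.16% of all genes. D250 over D90 had 1 and 0 of 52, against 0.859% and 1.12%. D250 over D15 had 3 and 0 of 49, against 1.85% and 2.2%. The same comparisons in Jersey had 0 and 1 of 50, against 2.98% and 3.78%, and 3 and 1 of 51, against 3.72% and 0.466%. The last had 4 and 4 of 52, against 9.17% and 3.42%.

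Of 17 further genes of arachidonate release found, 10, 9 and 10 had at least 1 FPKM on D15, D90 and D250. Past the limit in Jersey were 4 (PLA2G5, PLA2G7, PLA2G15 and MGLL) on D15, 2 (PLA2G5 and MGLL) on D90 and 2 (PLA2G5 and DAGLB) on D250, to be read against the same shares of all genes. PLA2G5, a secreted phospholipase A2, stood at 0.143, 1.19 and 1.08 FPKM in Kashmiri and 5.40, 13.0 and 8.36 in Jersey and passed on every day. PLA2G7, which hydrolyses platelet-activating factor, stood at 1.22, 31.2 and 22.7 against 10.7, 38.5 and 11.4, so that Kashmiri D90 was 25.6-fold above Kashmiri D15. The most abundant gene of the list was DAGLB, a diacylglycerol lipase, at 72.9, 84.5 and 62.9 against 198, 301 and 711.

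Of 10 genes that return arachidonate to phospholipids, 3 (LPCAT2, MBOAT1 and MBOAT7) were higher past the limit in Jersey on D15. On D90 it was 1 (MBOAT7) and on D250 3 (LPCAT2, MBOAT7 and ACSL4), and 0 were lower on any day. The median log2 ratio of the 10 was 1.47, 0.94 and 1.41 on the 3 days. The shares of all genes higher past the limit were 6.45%, 6.58% and 10.9%, so the count on D90 was near that share. MBOAT7, which prefers arachidonate and phosphatidylinositol, stood at 11.7, 14.1 and 13.2 FPKM in Kashmiri and 86.9, 132 and 179.9 in Jersey. LPCAT2, an acyltransferase that also makes platelet-activating factor, stood at 0.502, 1.04 and 1.75 against 8.22, 5.24 and 43.5. ACSL4, an acyl-CoA synthetase for arachidonate, stood at 7.16, 18.0 and 11.8 against 17.2, 54.1 and 160.0.

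Among the prostanoid synthases, thromboxane synthase and prostaglandin D synthase went apart. Of 7 found, 5 had at least 1 FPKM on each day. Past the limit, 0, 1 and 1 (TBXAS1) were higher in Jersey on D15, D90 and D250, and 0 were lower. Of all genes 6.45%, 6.58% and 10.9% were higher and 2.12%, 5.17% and 1.37% lower. The median log2 ratio of the 5 was 0.85, 0.20 and -1.28, so on D250 TBXAS1 did not stand for the list. TBXAS1 stood at 4.69, 2.00 and 1.72 FPKM in Kashmiri and 17.8, 18.8 and 122 in Jersey, which was 70.9-fold higher on D250, and it passed on D90 and D250. PTGDS, the lipocalin-type prostaglandin D synthase, stood at 67.2, 8.62 and 22.1 against 127, 24.2 and 7.45, and in Jersey D250 was 17.0-fold under D15. FAM213B, a prostaglandin F synthase, was the most abundant of the list at 309.9, 49.7 and 86.8 against 191, 57.2 and 32.7. HPGD, which inactivates prostaglandins, stood at 1.98, 1.30 and 9.21 against 0.601, 0.531 and 2.84, and passed in Kashmiri from D90 to D250.

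Of 10 prostanoid receptors 5 reached 1 FPKM. PTGER4, the EP4 receptor for prostaglandin E2, led them at 6.86, 28.9 and 12.3 FPKM in Kashmiri and 9.87, 26.4 and 46.6 in Jersey, and no breed difference of it passed the limit. PPARG, a nuclear receptor that binds prostaglandin J2 derivatives, stood at 0.258, 6.02 and 8.81 against 5.25, 10.6 and 6.34. It was past the limit in Jersey only on D15, and Kashmiri D90 and D250 were past it over Kashmiri D15.

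Past 5-lipoxygenase, the leukotriene B4 receptor LTB4R stood at 1.34, 2.83 and 2.23 FPKM in Kashmiri and 37.9, 16.2 and 67.8 in Jersey, and all 3 breed differences passed. Of the leukotriene and lipoxin receptors with at least 1 FPKM, 2 of 2 (LTB4R and CMKLR1) were higher past the limit on D15. On D90 it was 1 of 4 and on D250 1 of 2, LTB4R each time, and 0 were lower on any day. Of the further lipoxygenases and leukotriene enzymes, 8, 8 and 7 had at least 1 FPKM on the 3 days. Past the limit, 2 (LTC4S and COTL1), 1 (GGT5) and 2 (GGT5 and COTL1) were higher in Jersey and 0 were lower. Of all genes 6.45%, 6.58% and 10.9% were higher and 2.12%, 5.17% and 1.37% lower. The median log2 ratio of this list was 0.44, 0.25 and -0.25. LTC4S, leukotriene C4 synthase, stood at 0.438, 3.52 and 0.724 against 5.49, 4.38 and 0.239 and was higher in Jersey past the limit on D15. GGT5, a gamma-glutamyltransferase that turns leukotriene C4 into D4, stood at 17.5, 3.47 and 5.43 against 67.6, 199.6 and 257, and passed on D90 and D250. COTL1, an actin-binding protein that also binds 5-lipoxygenase, was the most abundant of its list at 181, 506 and 259.7 against 1002, 1319 and 1536. GPX4, a glutathione peroxidase that most cells use, was listed at 0 in 3 groups, so a low listed value in this table may not be read as absence.

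Among 12 further annexins and their S100 partners, 9 reached 1 FPKM. ANXA3, known from neutrophils, S100A10 and S100A11 were past the limit in Jersey on D15, 0 genes were higher and ANXA6 was lower on D90, and ANXA3 was higher on D250. Of all genes 6.45%, 6.58% and 10.9% were higher on D15, D90 and D250, and 5.17% were lower on D90. ANXA2, the most abundant further annexin, stood at 335, 301 and 437 FPKM in Kashmiri and 636, 560 and 430 in Jersey, a difference of under 2-fold on each day.

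**Figure D5:**
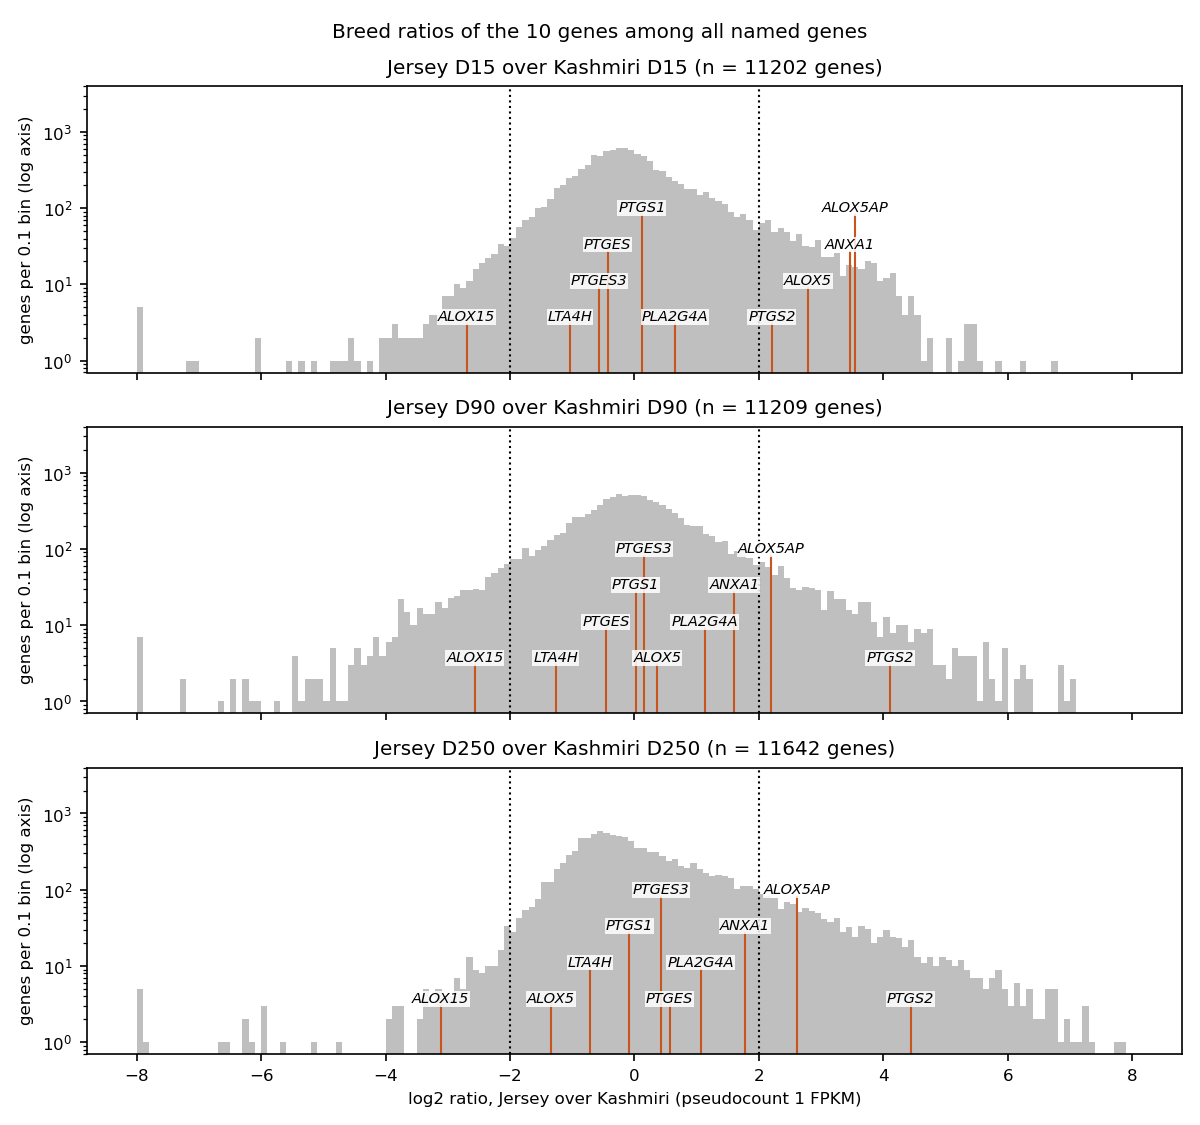
Histograms of the log2 ratio of Jersey over Kashmiri, with 1 FPKM added, for all genes with at least 1 FPKM in either breed on D15 (11202 genes), D90 (11209) and D250 (11642), with the 10 members (PTGS1, under 1 FPKM, included) drawn as named lines, the limit of 2 dotted, and ratios beyond 8 in size drawn at the edge. PTGS2 lies at 2.21, 4.11 and 4.44 and ALOX15 at -2.70, -2.56 and -3.11, on opposite sides of medians of -0.13, -0.03 and -0.10.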

How the data were processed

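RNA from milk cells of Kashmiri and Jersey cattle was sequenced from stranded mRNA libraries. The authors trimmed the reads, aligned them to the bovine genome build UMD3.1 with Bowtie2 and TopHat, and used Cufflinks and Cuffdiff to give 1 FPKM value per gene and group. The deposited FPKM values were used as they stand. Of 61264 entries 25121 carried a gene name. The columns named for the local breed were taken as Kashmiri, and stages 1, 2 and 3 as D15, D90 and D250. For a name with several entries the one with the highest mean was used. The table holds no reads per gene or library and no library values, so no interval or SD was computed, and no test was run; read totals per library were not used here. Log2 ratios used a pseudocount of 1 FPKM, which understates differences of genes with low values, and the limit of 2 with a minimum of 1 FPKM was a fixed size and not a test. Alternatives were a pseudocount of 0.1 FPKM, a minimum of 0.01 FPKM, a limit of 1, summed entries of a name, and FPKM scaled again to a library sum that left out the milk protein genes (5 found of 6 listed) or to the upper quartile. Named pathway genes were those past the limit in at least 3 comparisons and up to 2 of the highest FPKM of each list. Genes that a count between breeds within a single list rests on were named too. The members, gene lists and markers were chosen with earlier results of these data known, and 1 marker gene is not reported here. Scripts were tested on simulated data, with changes larger than the limit set only in genes of higher FPKM. Changes near the limit or at the low FPKM of several members were not simulated. Values were computed with pandas 2.3.3 and numpy 2.4.6 in Python 3.11.15, and drawn with matplotlib 3.10.9. No sequence or coordinate is given, since sequence of that build was not used here.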

Additional observations from a re-analysis of the deposited data

Results flagged for a closer look

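ALOX5 was singled out because its values changed in opposite directions over lactation in the 2 breeds. Its log2 ratio of D90 over D15 was -1.22 in Jersey and 1.20 in Kashmiri, a difference of -2.42. For D250 over D15 the log2 ratios were -2.29 and 1.83, a difference of -4.13. Each side is 1 group value per day, so these differences were not tested. The summed neutrophil markers were higher on D250 than on D15 in both breeds (14876 against 5354 FPKM in Jersey, 658 against 196 in Kashmiri), and the macrophage gene C1QC had the order of days of ALOX5 in Jersey (144, 42.9 and 6.80 FPKM on D15, D90 and D250) and stood at 7.53, 20.5 and 14.8 in Kashmiri. C1QA and C1QB were likewise lower on D250 than on D15 in Jersey past the limit, and in Kashmiri they stood higher on D250 but not past it. The macrophage list as a whole rose in Jersey, with a summed FPKM of 2777 on D250 against 1098 on D15. Its median log2 ratio was 0.62, and CD68 and ADGRE1 were higher past the limit. The part of either cell type in the ALOX5 values was not tested.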

How the results depend on the processing

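With 1 value per group no replicate was left out, and the reads behind a value, its spread and its precision are unknown. No paired analysis was possible because the table holds 1 value per group and no replicate columns.

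The number of members past the limit, of those with at least 1 FPKM, depended on the scale as follows. In Kashmiri D90 over D15 it was 1, and 2 under both rescalings, with ANXA1 added. In Kashmiri D250 over D15 it was 0, and 2 (ALOX5 and ANXA1) with a pseudocount of 0.1 FPKM and under both rescalings. In Jersey D250 over D90 it was 1, and 2 with a pseudocount of 0.1 FPKM, but 0 under both rescalings and with summed entries, PTGES being lost each time. With a limit of 1 in place of 2 the counts were 4, 2 and 3 in the Kashmiri comparisons (D90 over D15, D250 over D90, D250 over D15), 4, 3 and 4 in the Jersey ones, and 6 on D90 and 6 on D250 between breeds. The minimum of 0.01 FPKM changed no count. The breed count on D15 was 5 under each alternative but the limit of 1, where it was 6. The breed count on D250 was 3, and 2 with the milk protein genes left out of the scaling, ALOX5AP being lost.

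Scaling to a library sum without the milk protein genes shifted the median over all genes (log2) by 0.85 in Kashmiri D250 over D15 and by -0.64 in Jersey over Kashmiri on D250. The share of higher among all genes past the limit then went from 45.6% to 92.4% and from 88.9% to 57.0%. In Kashmiri D90 over D15 it went from 31.2% to 51.6%, in Kashmiri D250 over D90 from 43.4% to 91.7%, in Jersey D90 over D15 from 44.1% to 55.8%, in Jersey D250 over D90 from 88.9% to 72.3%, and between breeds from 75.3% to 87.8% on D15 and from 56.0% to 69.4% on D90. It was 42.3%, 56.2% and 65.9% in the Kashmiri comparisons and 73.8% between breeds on D250 with the upper quartile. Of the 90 log2 ratios of the members, 13 changed sign under the first rescaling, none with a size above 0.56 as deposited, 5 under the second, and 1 (PTGES between breeds on D90) with summed entries. Of the 90, 21 moved by over 1.5 times under the first rescaling and 15 with a pseudocount of 0.1 FPKM. All 90 moved by less under the second rescaling and with summed entries. Without a pseudocount, an alternative chosen after seeing the data, 23 of the 90 moved by over 1.5 times. The cause of these shifts was not tested.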
